A study of Homo sapiens with 2 samples.

Results

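The chaperones and stress response genes of protein folding were examined in HepG2, a cell line from a human hepatocellular carcinoma, treated with the polyherbal preparation Padma 28. The 39 genes were taken by name, with earlier results of these data known. Of these, 24 act in the endoplasmic reticulum (ER), 12 in the cytosol, with the heat shock factors counted there, and 3 in mitochondria. For 18 h, cells were kept with the ethanolic Padma 28 extract at 218 μg/ml or, as solvent control, with 0.9% ethanol (EtOH). The cells of 3 cultures were pooled for each treatment, and 1 Affymetrix Human Genome U133 Plus 2.0 array was hybridised per pool. The spread between cultures is therefore unknown, no test between treatments was possible, and every difference given here compares 2 pools. Flask size and the time in culture before treatment are stated differently in the sample labels and in the methods of the study.

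Proteins that enter the secretory pathway are folded in the ER by chaperones of the HSP70 and HSP90 families, by the lectins calnexin and calreticulin and by disulfide isomerases. When unfolded proteins accumulate there, the sensors IRE1, ATF6 and PERK start the unfolded protein response, which raises the folding and degradation capacity of the ER and lowers translation. In the cytosol, unfolded proteins release the heat shock factor HSF1, which induces HSP70, HSP90, their cochaperones and small heat shock proteins. Hepatocytes secrete most plasma proteins and depend on ER folding for it.

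A probe set is a group of probes on the array that reads 1 stretch of a transcript, and its value is given as a log2 expression value. Differences are on the log2 scale, Padma 28 minus EtOH, so that a positive one is higher with Padma 28. A gene was represented by its brightest probe set that the annotation gives to no other gene. Of the 39 genes, 36 had such a probe set. HSPA8 and SYVN1 had only probe sets shared with small RNA genes, and HSF2, a heat shock factor, was not analysed here because the annotation used names no probe set for it. The genes held 98 of the 54675 probe sets, 91 of their own and 7 shared ones. A probe set was taken as above background from 2 log2 units over the most frequent value of its array, at 4.35 with Padma 28 and 4.25 with EtOH. Of the 91, 82 were above background on both arrays and 9 on neither. On both arrays all 8 measured hepatocyte markers were above background, with albumin (ALB) at 16.52 with Padma 28 and 16.62 with EtOH. Their log2 differences ran from -0.55 to -0.05. Of the markers of leukocytes, endothelial cells and fibroblasts, PECAM1 and COL1A1 were above background on both arrays and the other 6 measured on neither.

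Promoters of many ER genes carry sequence elements through which the unfolded protein response acts, and those of heat-inducible genes carry heat shock elements. Windows of 250 bases before to 50 bases after the transcription start, from RefSeq on GRCh38.p14, were found for 37 of the 39 genes. Both strands were searched for the ER stress response element ERSE (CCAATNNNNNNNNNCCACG) and for ERSE-II (ATTGGNCCACG), which are bound by ATF6 and XBP1. The other elements were the unfolded protein response element UPRE (TGACGTGG), the CARE (TTNCATCA), which is bound by ATF4, and the heat shock element HSE (GAANNTTCNNGAA), which is bound by HSF1. ERSE and ERSE-II both end in CCACG, and UPRE holds the same letters on its other strand. The 250 bases before the start are shown for 6 genes whose values are set against each other in the results. They are written 5′ to 3′ on the strand of the gene, with the fixed letters of each element found in capitals.
HSPA5, chr9:125241344-125241593, minus strand, with 1 ERSE: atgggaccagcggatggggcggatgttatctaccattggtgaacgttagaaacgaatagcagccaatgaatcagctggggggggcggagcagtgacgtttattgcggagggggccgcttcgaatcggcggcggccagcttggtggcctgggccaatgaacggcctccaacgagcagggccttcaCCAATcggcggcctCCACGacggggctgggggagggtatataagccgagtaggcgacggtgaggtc
HSP90B1, chr12:103930160-103930409, plus strand, with 2 ERSE: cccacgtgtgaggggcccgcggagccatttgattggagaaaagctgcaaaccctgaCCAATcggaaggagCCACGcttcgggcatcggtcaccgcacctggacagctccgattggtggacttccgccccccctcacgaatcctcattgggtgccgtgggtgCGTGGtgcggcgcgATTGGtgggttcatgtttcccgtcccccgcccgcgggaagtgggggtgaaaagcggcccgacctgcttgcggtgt
HERPUD1, chr16:56931892-56932141, plus strand, with a CARE and an ERSE-II: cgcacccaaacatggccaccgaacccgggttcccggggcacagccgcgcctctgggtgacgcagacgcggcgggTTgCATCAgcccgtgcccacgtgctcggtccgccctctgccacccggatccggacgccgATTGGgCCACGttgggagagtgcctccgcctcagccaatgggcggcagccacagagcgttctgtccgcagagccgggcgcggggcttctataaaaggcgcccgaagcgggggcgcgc
SDF2L1, chr22:21642052-21642301, plus strand, with an ERSE-II: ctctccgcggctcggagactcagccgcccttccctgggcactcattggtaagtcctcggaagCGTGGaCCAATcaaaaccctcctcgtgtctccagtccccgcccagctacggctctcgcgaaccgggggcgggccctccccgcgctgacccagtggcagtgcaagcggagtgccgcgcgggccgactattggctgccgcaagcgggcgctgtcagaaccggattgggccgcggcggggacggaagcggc
DNAJB9, chr7:108569624-108569873, plus strand, with none of these elements: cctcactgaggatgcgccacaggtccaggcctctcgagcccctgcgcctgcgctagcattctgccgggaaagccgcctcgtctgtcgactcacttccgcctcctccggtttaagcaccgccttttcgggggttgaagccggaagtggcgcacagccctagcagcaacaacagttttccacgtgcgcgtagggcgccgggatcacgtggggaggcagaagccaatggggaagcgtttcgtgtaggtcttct
HSPA8, chr11:123062137-123062386, minus strand, with 2 HSE: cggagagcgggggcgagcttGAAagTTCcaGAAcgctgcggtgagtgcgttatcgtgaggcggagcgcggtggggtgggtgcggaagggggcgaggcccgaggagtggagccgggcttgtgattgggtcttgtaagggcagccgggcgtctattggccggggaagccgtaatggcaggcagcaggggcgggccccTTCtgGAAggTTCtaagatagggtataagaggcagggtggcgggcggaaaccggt

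ERSE was found in 7 of the 23 ER genes with a window (HSPA5, HSP90B1, CALR, CANX, CRELD2, ERO1B and XBP1), in none of the 11 cytosolic and in none of the 3 mitochondrial genes. Over all 27305 promoters in the table the share was 0.0806%. ERSE-II was found in SDF2L1, HYOU1 and HERPUD1, against 0.0549% of all promoters. HYOU1 also held a UPRE, which overlaps 1 of its 2 ERSE-II, against 0.795% of all promoters, and HERPUD1 a CARE, against 3.67%. HSE was found in HSPA8 and DNAJA1, against 0.487%. A match describes the letters only and does not show that a factor binds. A gene without a match may still hold a variant or more distant element, since only exact letters in 1 window per gene were searched.

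No chaperone or stress response gene was more than 2-fold higher or lower with Padma 28. The count was 0 of 36 genes in either direction, beside 0.875% of all 19775 genes higher and 0.384% lower by that much. The largest differences were 0.60 for SDF2L1 and -0.48 for ERO1A. At a log2 difference of 0.5, which is 1.41-fold and was set after the values had been seen, 4 of the 35 genes above background were higher (SDF2L1, DNAJB9, HERPUD1 and ERN1) and 0 were lower. SDF2L1 was at 0.40 with 64 added to both linear values, and HERPUD1 at 0.27 as the median of its probe sets and at -0.04 without _s_at probe sets, so these 2 did not pass under each setting. Over all 10361 genes above background 9.06% were higher by this measure and 4.02% lower, so the count alone does not set these genes apart. All 4 act in the ER, as do 23 of the 35 chaperone and stress response genes above background. The median difference was 0.05 over 23 ER genes, -0.03 over 10 cytosolic genes and 0.12 over 3 mitochondrial genes, beside -0.02 over all genes and 0.06 over all genes above background. The ER genes spread from -0.48 to 0.60, the cytosolic ones from -0.25 to 0.16 and the mitochondrial ones from 0.04 to 0.24. Whether the compartments differ was not tested, since genes on 1 array per treatment are not replicates.

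The agreement between probe sets is the only measure of error within these arrays. Over 4912 genes with at least 2 probe sets above background on both arrays, the log2 differences of the 2 brightest lay a median of 0.14 apart, with the 90th percentile at 0.46. For 25 of the chaperone genes the median was 0.12. Differences of 0.1 are thus within the typical disagreement between probe sets of the same gene, and 1 in 10 genes disagreed by over 0.46.

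**Figure D1:**
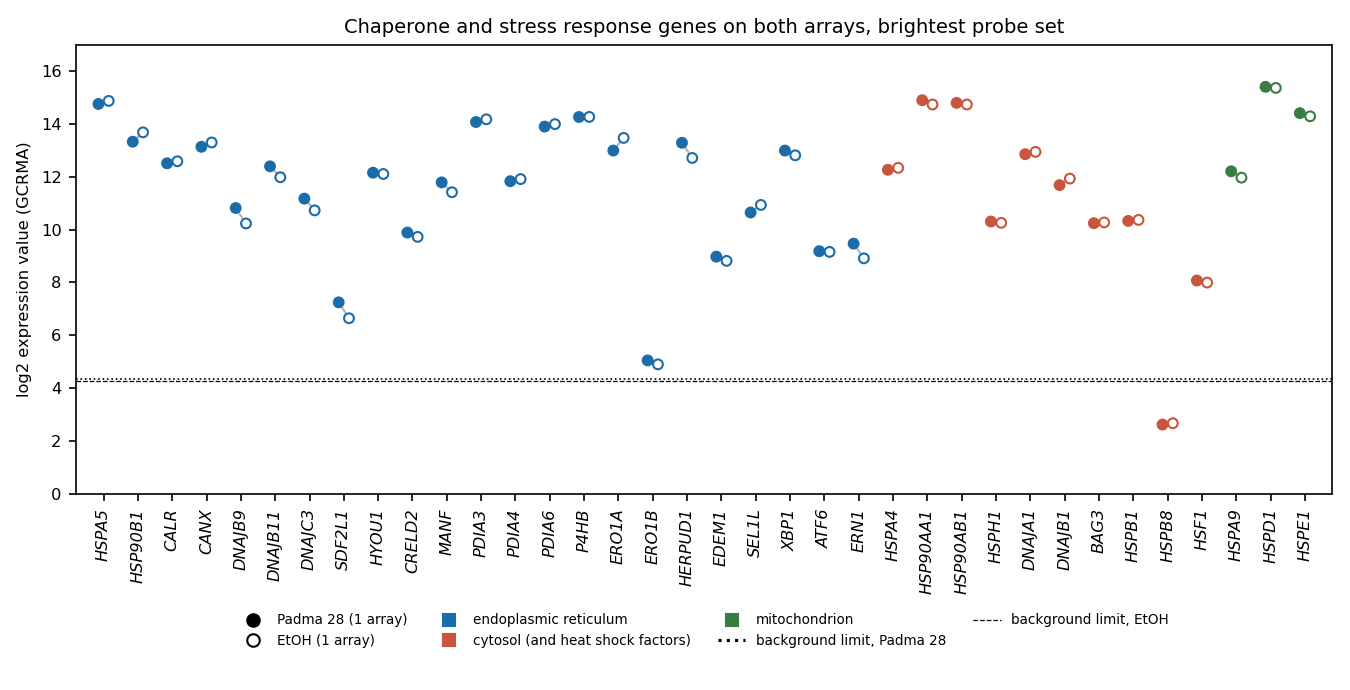
Log2 expression value (vertical axis, GCRMA) of the brightest own probe set of 36 genes, with 1 array per treatment. Filled circles are Padma 28, open circles are EtOH, colours mark the compartment and the horizontal lines mark the background limits of 4.35 and 4.25. Only the 2 circles of a gene can be compared, and the largest distance is 0.60, for SDF2L1. HSPB8 lies below the limits.

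Of the principal ER chaperones, HSP90B1 was lower with Padma 28 on each of its probe sets, and HSPA5 differed by less than the median disagreement between probe sets. HSPA5 (BiP), the ER member of the HSP70 family and the repressor of all 3 stress sensors, was at 14.77 with Padma 28 and 14.88 with EtOH, a log2 difference of -0.12. A second probe set gave -0.10. HSP90B1 (GRP94), the HSP90 of the ER, was at 13.34 with Padma 28 and 13.69 with EtOH, which is 1.28-fold lower. All 4 of its probe sets were lower, by 0.36 and 0.47 on its own probe sets and by 0.43 and 0.18 on those shared with the miRNA gene MIR3652. The brightest of the 4 is a shared one, at 14.42 with Padma 28 and 14.60 with EtOH, and gave the smallest difference, -0.18. All 4 are _x_at or _s_at probe sets. The promoters of HSPA5 and HSP90B1 both hold ERSE, between 66 and 48 bases before the start in HSPA5 and at 2 places in HSP90B1.

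The lectin chaperones bind the trimmed sugars of new glycoproteins. Calreticulin (CALR), the soluble lectin, was at 12.52 with Padma 28 and 12.60 with EtOH, a difference of -0.08. Its probe sets ranged from -0.45 to -0.02. Calnexin (CANX), the membrane-bound lectin, was at 13.14 with Padma 28 and 13.31 with EtOH, a difference of -0.16, and its 4 probe sets above background ranged from -0.16 to 0.05. HYOU1, the nucleotide exchange factor of BiP, was at 12.16 with Padma 28 and 12.11 with EtOH and differed by 0.05. None of these 3 genes stood clear of the disagreement between probe sets.

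Of the 11 ER chaperones and cochaperones, all above background, 7 were above 0, beside 58.1% of all genes above background. The median of the 11 was 0.16. Among them are 3 J proteins, DNAJB9, DNAJC3 and DNAJB11, which deliver substrates to BiP and start its ATP hydrolysis, and which were grouped after their values had been seen. DNAJB9 (ERdj4) was at 10.82, 10.24 and 9.75 on its 3 probe sets with Padma 28, and at 10.24, 9.71 and 9.16 with EtOH. The differences were 0.59, 0.53 and 0.59, which is 1.50-fold on the brightest. No ERSE, ERSE-II, UPRE or CARE was found in its promoter window. DNAJC3 (p58IPK), which also inhibits the kinase PERK, was at 11.18 with Padma 28 and 10.73 with EtOH, a difference of 0.44. Its 4 probe sets lay between 0.31 and 0.58. DNAJB11 (ERdj3), read by a single probe set, was at 12.40 with Padma 28 and 11.99 with EtOH, a difference of 0.41. Each probe set of the 3 genes was higher with Padma 28. Other ER proteins with a J domain, from the wider list, were at 0.57 (DNAJC1), 0.38 (DNAJC10), 0.16 (DNAJB14), 0.13 (SEC63) and -0.06 (DNAJB12).

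SDF2L1, which forms a complex with DNAJB11 and keeps unfolded proteins soluble, had the largest difference of the 36 genes. Its single probe set was at 7.25 with Padma 28 and 6.65 with EtOH, which is 1.52-fold higher. MANF, a nucleotide exchange inhibitor of BiP that is also secreted, was at 11.79 with Padma 28 and 11.42 with EtOH, 1.30-fold higher. CRELD2, a disulfide isomerase-like protein induced by ER stress, was at 9.89 with Padma 28 and 9.73 with EtOH, a difference of 0.16. These 3 genes have 1 probe set each, so their values could not be checked on a second one.

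Of the enzymes of oxidative folding, ERO1A had the lowest difference of the 36 genes and the others lay between -0.10 and 0.15. Among the disulfide isomerases, PDIA3, which works with the lectin chaperones, was at 14.08 with Padma 28 and 14.18 with EtOH, and PDIA4 at 11.84 with Padma 28 and 11.92 with EtOH. PDIA6 differed by -0.09 and P4HB, the classical protein disulfide isomerase, by -0.0041. All 4 probe sets of PDIA6 were lower, by 0.09 to 0.16, while those of PDIA3, PDIA4 and P4HB lay on both sides of 0. ERO1A, the oxidase that recharges the isomerases, was at 13.00 with Padma 28 and 13.48 with EtOH on its brightest probe set, a difference of -0.48. Its other probe sets gave 0.03 and -0.04, so only 1 of 3 was lower by that much. ERO1B, its homologue, was near background at 5.05 with Padma 28 and 4.90 with EtOH. In the oxidative group 1 of 6 genes was above 0, beside 58.1% of all genes above background, and the group median was -0.09.

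The components of ER-associated degradation lay on both sides of 0. HERPUD1, a membrane protein of the degradation complex that is induced by ER stress, was at 13.30 with Padma 28 and 12.72 with EtOH, 1.49-fold higher. Its other probe set, close to background at 4.45 with Padma 28 and 4.49 with EtOH, differed by -0.04. SEL1L, the adaptor of the ubiquitin ligase HRD1, was at 10.65 with Padma 28 and 10.94 with EtOH, a difference of -0.29, and its 3 probe sets above background ranged from -0.58 to -0.29. SYVN1, which encodes HRD1, was at 9.33 with Padma 28 and 9.60 with EtOH on a probe set shared with MIR6751, a difference of -0.27. EDEM1, a mannosidase that marks misfolded glycoproteins, was at 8.98 with Padma 28 and 8.82 with EtOH. The ligase and its adaptor were thus lower on every probe set above background, whereas HERPUD1 was higher on its bright one.

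Of the stress sensors, ERN1 (IRE1), the ER kinase and nuclease that splices the XBP1 transcript, was higher with Padma 28. It was at 9.47 and 7.19 on 2 probe sets with Padma 28, against 8.92 and 6.62 with EtOH. The differences were 0.56 and 0.57, or 1.47-fold on the brightest, and the remaining probe set was below background on both arrays. XBP1 itself was at 13.00 with Padma 28 and 12.82 with EtOH, a difference of 0.18, with -0.21 on a probe set near background. The splicing of XBP1 was not analysed here. ATF6 was at 9.19 with Padma 28 and 9.16 with EtOH, and its 4 probe sets ranged from -0.41 to 0.03. ATF6 is activated by cleavage of the protein, which an array does not read.

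**Figure D2:**
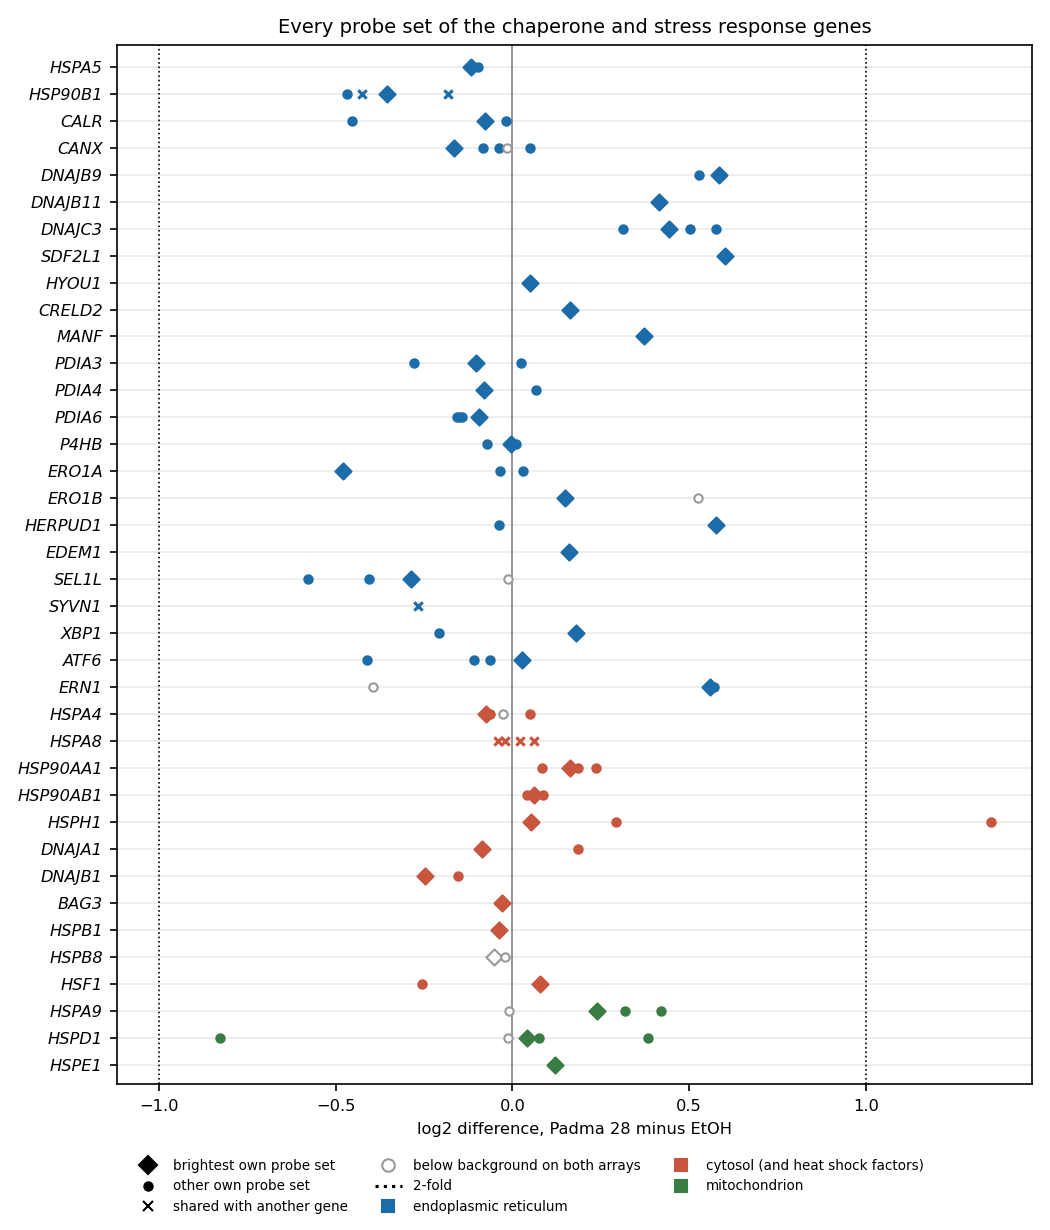
Log2 difference, Padma 28 minus EtOH (horizontal axis), of all 98 probe sets of 38 genes. There is 1 array per treatment. A diamond marks a gene's brightest own probe set, a dot its other own ones and a cross a shared one, with open symbols for those below background on each array and dotted lines at 2-fold. The probe sets of DNAJB9 and DNAJC3 lie together at 0.31 to 0.59, while a single HSPH1 probe set at 1.35 lies past 2-fold.

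The differences of the ER genes were also set against their promoter elements. Of 7 genes with ERSE, 3 were above 0, with a median of -0.08 and a range of -0.36 to 0.18. The 3 genes with ERSE-II were all above 0, at 0.60 (SDF2L1), 0.58 (HERPUD1) and 0.05 (HYOU1). Of 13 genes with a window but neither element, SYVN1 had no probe set of its own and was left out, and of the other 12, 7 were above 0, with a median of 0.09 and a range of -0.48 to 0.59. DNAJB9 and ERN1 were among the last. With 3 to 12 genes a group these are descriptions, and no test was made. Over all genes above background, 58.1% were above 0.

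**Figure D3:**
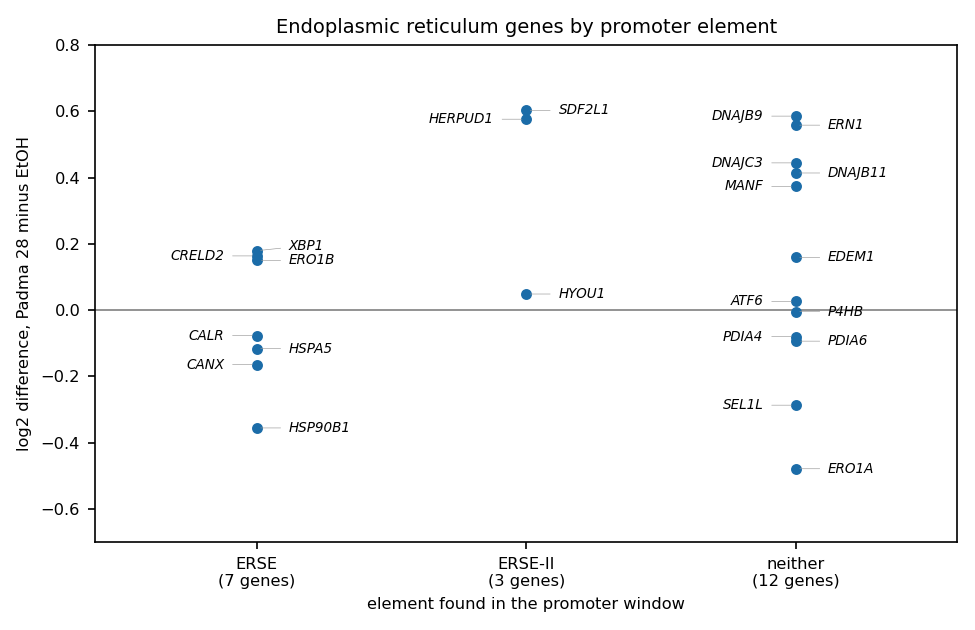
Log2 difference, Padma 28 minus EtOH (vertical axis), of 22 ER genes by the element found in their promoter window (horizontal axis), from 1 array per treatment, where each dot is the brightest own probe set of a gene. The genes with ERSE lie between -0.36 and 0.18, and the 3 with ERSE-II between 0.05 and 0.60.

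Among the 39 genes, the brightest own probe sets of cytosolic HSP70, HSP90 and HSP110 genes differed by -0.07 to 0.16. HSP90AA1, the stress-inducible form of cytosolic HSP90, was at 14.91 with Padma 28 and 14.75 with EtOH, and its 4 probe sets were higher by 0.08 to 0.24. HSP90AB1, the constitutive form, was at 14.81 with Padma 28 and 14.75 with EtOH, with 3 probe sets between 0.04 and 0.09. HSPA8 (HSC70), the constitutive HSP70, was read by 4 probe sets shared with SNORD14C and SNORD14D, small nucleolar RNA genes, and these differed by -0.04 to 0.06. The HSE found in its promoter lie from 230 to 218 and from 55 to 43 bases before the start. HSPA4, an HSP110 protein and exchange factor of HSP70, was at 12.27 with Padma 28 and 12.35 with EtOH.

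HSPH1 (HSP105), a heat-inducible HSP110, gave different answers on its 3 probe sets. The brightest was at 10.31 with Padma 28 and 10.26 with EtOH, a difference of 0.05, and the next differed by 0.29. The dimmest was at 5.93 with Padma 28 and 4.57 with EtOH, a difference of 1.35 or 2.56-fold. It was the only 1 of the 91 own probe sets past 2-fold, while 0 were past 2-fold lower. Over all 41097 probe sets of a single gene 0.757% were more than 2-fold higher and 0.47% lower, so 1 of 91 is close to that share.

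Among the cytosolic cochaperones, small heat shock proteins and HSF1 of the 39 genes, brightest probe sets differed by -0.25 to 0.08. DNAJB1 (HSP40), a J protein that is strongly induced by heat, was at 11.69 and 11.11 with Padma 28 and at 11.94 and 11.26 with EtOH, lower by 0.25 and 0.15. DNAJA1, another J protein of cytosolic HSP70, gave -0.09 and 0.19 on its probe sets. BAG3, which links HSP70 to autophagy, was at 10.25 with Padma 28 and 10.28 with EtOH. Of the small heat shock proteins, which hold unfolded proteins without ATP, HSPB1 (HSP27) was at 10.33 with Padma 28 and 10.37 with EtOH, and HSPB8 was below background on both arrays. HSF1, the factor that drives this response, differed by 0.08 on its brightest probe set, and was at 6.00 with Padma 28 and 6.25 with EtOH on a dimmer one.

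All 3 mitochondrial chaperones were above 0 on their brightest probe set, beside 58.1% of all genes above background. HSPA9 (mortalin), the mitochondrial HSP70 that draws proteins through the import channel, was at 12.21, 12.09 and 6.93 with Padma 28 and at 11.97, 11.67 and 6.61 with EtOH. The differences were 0.24, 0.42 and 0.32, or 1.18-fold on the brightest, so the 3 probe sets above background lay on the same side. HSPD1 (HSP60), the mitochondrial chaperonin, was at 15.42 with Padma 28 and 15.38 with EtOH, a difference of 0.04, and HSPE1 (HSP10), its lid, at 14.42 with Padma 28 and 14.30 with EtOH, a difference of 0.12. The 2 genes are transcribed away from each other, and their promoter windows overlap by 204 bases at chr2:197500225-197500428. Dimmer probe sets of HSPD1 gave 0.07, 0.38 and -0.83, the last at 9.99 with Padma 28 and 10.81 with EtOH. The brightest probe sets of HSPD1 and HSPE1 differed by less than the median disagreement between probe sets.

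A wider list of 153 genes of the same processes, 142 of them with a probe set of their own, held 2 genes more than 2-fold higher, beside 0.875% of all genes. On the lower side, beside 0.384% of all genes, 1 gene had a measured difference past 2-fold, ERP27, but its value with Padma 28 was below background and bounds it only to at least 1.04-fold lower. Both higher ones were listed as effectors of the unfolded protein response and act downstream of ATF4. DDIT3 (CHOP), a transcription factor of ER stress that promotes cell death, was at 9.54 with Padma 28 and 8.04 with EtOH, 2.84-fold higher. TRIB3, a pseudokinase induced by ATF4 and CHOP, was at 12.37 and 10.65 with Padma 28 and at 11.15 and 9.29 with EtOH, higher by 1.22 and 1.36. ATF4, the transcription factor translated when PERK or its sister kinases phosphorylate eIF2, was at 13.31 with Padma 28 and 12.49 with EtOH, a difference of 0.82. Whether any of these kinases acted here was not tested. DDIT3 and ATF4 have 1 probe set each, so their values could not be checked on another one.

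In that group of sensors and effectors 8 of 16 genes were above 0. Among genes above background it was 8 of 14, beside 58.1% of all genes. The group had a median of 0.03 and its lowest gene was at -0.47. Of its 14 genes above background, 6 were above 0.5 and 0 below -0.5, beside 9.06% and 4.02% of all genes above background. Besides DDIT3, TRIB3 and ATF4 these were ATF3, a stress-induced transcription factor and target of ATF4, at 7.94 with Padma 28 and 7.15 with EtOH, CREB3L3, a membrane-bound factor of hepatocytes, at 0.69, and NUCB2, a calcium-binding protein, at 0.53. EIF2AK3, which encodes PERK, differed by 0.06. PPP1R15A (GADD34), the phosphatase subunit that reverses eIF2 phosphorylation and is itself a target of ATF4, was at 9.10 with Padma 28 and 9.47 with EtOH, a difference of -0.37. CHAC1, another target of ATF4, was below background on both arrays. ATF3, CREB3L3, NUCB2, EIF2AK3, PPP1R15A and CHAC1 lie outside the rule for named genes and were picked after their values had been seen. The list itself was chosen with earlier results of these data known, and the threshold of 0.5 was set after the values had been seen.

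Among the other ER genes, those of translocation into the ER, transport and retrieval were mostly higher, with 17 of 19 above 0 and a median of 0.24. The KDEL receptor KDELR3 was at 10.33 with Padma 28 and 9.85 with EtOH, and SSR3, a subunit of the translocon-associated complex, at 12.87 with Padma 28 and 12.42 with EtOH. SEC11A, the signal peptidase subunit, differed by 0.36. None passed 2-fold. Of 18 genes of glycoprotein quality control and degradation 10 were above 0, with UFD1, a cofactor of the segregase VCP, at 0.64, the ubiquitin-conjugating enzyme UBE2J1 at 0.51 and UGGT2, a glucosyltransferase that senses folding, at -0.71. Of 23 further folding enzymes 14 were above 0, with a J protein, DNAJC1, at 0.57 and the reductase DNAJC10 (ERdj5) at 0.38. ERP27, a non-catalytic isomerase homologue, was below background with Padma 28 and just above it with EtOH, as given before. Among genes above background, 17 of 19 translocation and transport genes, 10 of 17 degradation genes and 14 of 21 folding enzymes were above 0. Over all genes above background, 58.1% were above 0.

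The inducible HSP70 genes, the usual readout of heat shock, were lower with Padma 28. HSPA1A and HSPA1B, which are near-identical and cannot be told apart, were read by 3 shared probe sets at 12.97, 12.23 and 11.03 with Padma 28 and at 13.40, 12.84 and 11.75 with EtOH. The differences were -0.43, -0.60 and -0.72, the second on a probe set that is also assigned to HSPA1L. HSPA6, a strictly inducible HSP70, was at 7.09 and 5.93 with Padma 28 and at 7.64 and 6.63 with EtOH, lower by 0.54 and 0.69. HSPA4L, a testis-rich HSP110 protein, differed by -0.62, while the exchange factor BAG2 was at 11.30 with Padma 28 and 10.68 with EtOH, a difference of 0.62. A dimmer BAG2 probe set above background gave 0.09. None passed 2-fold. HSPA1A and HSPA1B lie outside the rule for named genes, having only shared probe sets, and were added after their values had been seen.

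No brightest probe set in the remaining cytosolic groups was past 2-fold. Of 11 J proteins 8 were above 0, with DNAJB4 at 0.55, DNAJB6 at 0.54 and DNAJC21 at 0.46. A dimmer DNAJB4 probe set gave 0.30. DNAJB6 had 2 more probe sets, shared with TMEM135, at -0.52 and -0.02. For DNAJC7 the brightest probe set gave 0.10 and the probe set of largest difference -1.18. Of 11 HSP90 cochaperones 8 were above 0, led by FKBP5, an immunophilin of steroid receptor complexes, at 9.12 with Padma 28 and 8.31 with EtOH, 1.75-fold higher. The others lay between -0.03 and 0.26, with FKBP4 at 0.26 and PPID at 0.23. Of 12 subunits of the chaperonin CCT and of prefoldin, which fold actin and tubulin, 10 were above 0, with PFDN5 at 0.28 and VBP1 and CCT4 at 0.23. Of 4 other small heat shock proteins and heat shock factors, HSF4 was above background and differed by -0.0059. Among genes above background, 8 of 10 J proteins, 8 of 11 HSP90 cochaperones and 10 of 12 CCT and prefoldin subunits were above 0. Over all genes above background the share was 58.1%.

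Of 16 further mitochondrial chaperones and proteases 11 were above 0, with a median of 0.05 and none past 2-fold. Among genes above background it was 11 of 15, beside 58.1% of all genes. GRPEL2, a nucleotide exchange factor of mortalin, was at 9.58 and 6.38 with Padma 28 and at 8.98 and 5.84 with EtOH, higher by 0.60 and 0.54. DNAJC19, a J protein of the import motor, gave 0.49 and 0.41 on its probe sets, and the protease CLPP 0.34. Other partners of mortalin in the list were at 0.33 (DNAJA3), 0.28 (TIMM44) and 0.21 (GRPEL1, an exchange factor). HSCB, a J protein of iron-sulfur cluster assembly, and DNAJC15, a J protein of the inner membrane, were both at 0.05. Below 0 were CLPX at -0.21, YME1L1 at -0.11, AFG3L2 at -0.02, TRAP1 at -0.0061 and SPG7, the last below background on both arrays. Besides GRPEL2, DNAJC19 and CLPP, the genes named in this group lie outside the rule for named genes and were picked after their values had been seen.

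**Figure D4:**
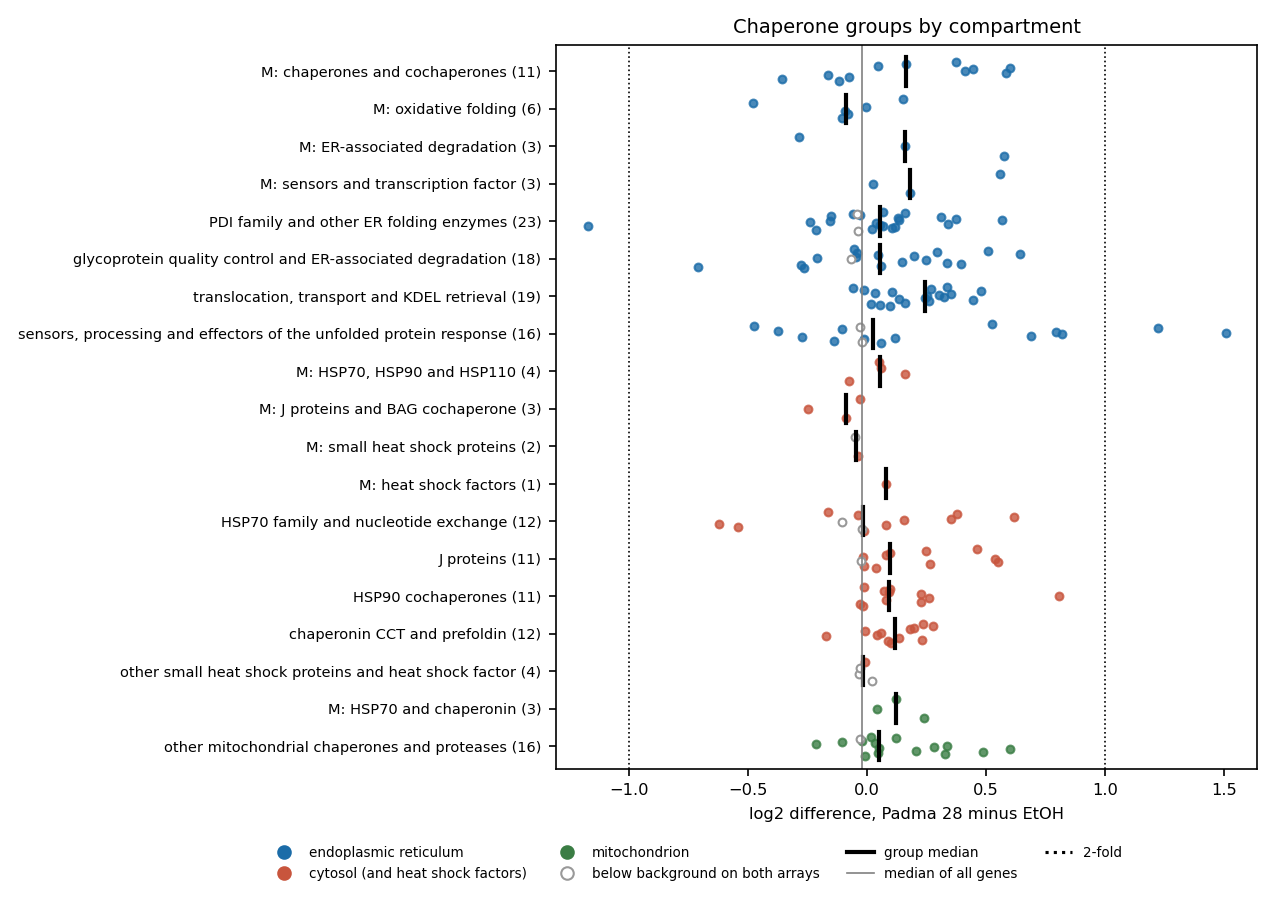
Log2 difference, Padma 28 minus EtOH (horizontal axis), of each gene by group, from 1 array per treatment, where M marks groups of the 39 genes and the other rows are the wider list, and brackets give how many genes were measured. Points are genes, open points lie below background on both arrays, black bars are group medians, the grey line is the median of all genes and dotted lines mark 2-fold. DDIT3 at 1.51 and TRIB3 at 1.22 lie past 2-fold on the right. The point on the far left is ERP27, which was below background with Padma 28 and is only at least 1.04-fold lower.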

How the data were processed

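Gene expression was measured on 1 Affymetrix Human Genome U133 Plus 2.0 array per treatment, each from the pooled cells of 3 cultures. The authors deposited log2 expression values of 54675 probe sets, made with GCRMA, which corrects background by probe sequence, applies quantile normalization and summarizes by median polish. Quantile normalization holds the distribution equal between arrays (sorted values differed by at most 0.099), so a shift shared by all genes cannot be seen. GCRMA values may compress differences of dim probe sets, which was not measured here. Versions in the submitters' notes on processing are R 2.15.1 and GCRMA 2.28.0, while the methods of the study give earlier ones. Their unspecific filter was not applied.

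Gene symbols came from the platform annotation, updated by Entrez identifier through RefSeq (GRCh38.p14). Of the probe sets, 41097 had 1 gene, 1801 several and 11777 none there. The log2 difference and the 2-fold threshold follow the methods of the study. Of each wider list, genes past 2-fold and the 3 with the largest difference above background were named. The members and lists were chosen with earlier results of these data known. With 1 array per treatment no p-value, SD or interval can be given, and precision is limited by the number of arrays. Only the reading of a gene by its brightest probe set and the 2-fold call were tested on simulated data, with differences set past 2-fold. Background limits, centring and the motif search were not tested in this way. Software was Python 3.11.15 with pandas 2.3.3, numpy 2.4.6, matplotlib 3.10.9 and statsmodels 0.14.6. As alternatives, a gene was read by its probe set of largest difference or by the median over probe sets, and other settings were filters on low values, 16 or 64 added to both linear values, median or loess centring (span 0.3), leaving out _x_at and _s_at probe sets and counting shared probe sets. A threshold of 0.5 was added after the data had been seen.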

Additional observations from a re-analysis of the deposited data

How the results depend on the processing

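With the probe set of largest difference, 1 of the 36 genes was past 2-fold (HSPH1 at 1.35), as was 1 of 28 without _x_at and _s_at probe sets, and under the other alternatives there was 0. The wider list held 5 genes past 2-fold with the largest probe set, DNAJC7 at -1.18 and UBE2J1 at 1.10 besides DDIT3, TRIB3 and ERP27 (below background with Padma 28), and 2 or 3 otherwise. DDIT3 and TRIB3 passed under all 10 alternatives. DDIT3 has a single probe set, above background on both arrays, so the settings that choose or filter probe sets could not change its value. The mitochondrial median was -0.25 without _x_at and _s_at probe sets, from HSPA9 at 0.32 and HSPD1 at -0.83, where HSPE1 had no probe set left, and between 0.09 and 0.17 under the others. The ER median lay between -0.07 and 0.10 and the cytosolic median between -0.04 and 0.08, so the sign of neither is fixed. With centring on the array median, the median of all genes was 0.03, and BAG3, HSPB1, HSPB8 and P4HB were above 0. Of the genes above 0.5, DNAJB9 ranged from 0.53 to 0.64, ERN1 from 0.50 to 0.61 and SDF2L1 from 0.40 (64 added) to 0.66, while HERPUD1 was at 0.27 as the median of its probe sets and at -0.04 without _s_at probe sets. ERO1A was at 0.03 there and at -0.04 as the median of its probe sets. HSP90B1 was at -0.18 with shared probe sets counted, and had no probe set left without _x_at and _s_at ones. No replicate could be left out, and no paired analysis was possible because each treatment has 1 array.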
